A study of Macaca fascicularis with 8 samples.

Results

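Accessible chromatin of the spleen was compared with that of the kidney and the liver of 1 adult male cynomolgus monkey (Macaca fascicularis). The comparison covered the regions of the genome that were called as a peak in all 3 organs. The peak lists of spleen, kidney and male liver were merged wherever peaks overlapped by at least 1 bp, which gave 191454 regions. Of these, 35209 (18.4%) had a peak in all 3 libraries and are called shared regions below, among 88063 regions with a spleen peak and 295418 merged regions of the 8 libraries. The cells were the 20019 spleen barcodes, 9724 kidney barcodes and 11935 male liver barcodes with at least 1000 counts, of 81475 barcodes in all. That threshold removed no barcode from these 3 libraries, since every deposited barcode of spleen, kidney and male liver passed it (the shallowest spleen cell held 1277 counts).

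The spleen filters the blood and is a secondary lymphoid organ. Its white pulp is built mainly of B and T lymphocytes, and its red pulp holds macrophages, plasma cells and the endothelium of the sinuses. Kidney and liver consist mostly of epithelial cells, the tubule cells and the hepatocytes, with endothelial and immune cells between them. In single-cell ATAC-seq, the Tn5 transposase cuts DNA that is not wrapped tightly in nucleosomes, so that promoters and enhancers in use in a cell yield fragments that carry the barcode of its droplet. Regions open in nearly every cell type are mostly promoters of widely used genes, whereas enhancers differ more between cell types.

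The series holds 8 single-cell ATAC-seq libraries of 7 organs from 2 adult monkeys labelled as normal. Spleen, kidney and the second liver library (male liver) came from the male animal, and colon, lung, heart, uterus and the first liver library (female liver) from the female animal. All organs were digested to cell suspensions with red cells lysed, no cell type was sorted for, and no treatment was given. Each organ of the male animal was 1 library, so organ and library cannot be told apart, no test between organs was possible, and the intervals printed here cover counting error only.

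The spleen library held 59616749 counts in 91034 peaks, the kidney library 40995276 in 107971 and the male liver library 92100566 in 110993, where a count is 1 cut end of a fragment. The median count per barcode was 2276 in spleen, 3693.5 in kidney and 6818 in male liver. Both ends of a fragment were usually counted, since between 94.6% and 95.5% of the entries were even. The number of cells was forced to a preset value for spleen and for liver in the study's pipeline and left at its default for kidney, and the spleen and male liver files held more barcodes than those presets. Spleen shared 268 barcodes with kidney and 353 with male liver, and 4 barcodes occurred in all 3 libraries. No annotation of the build of these peaks was used, so regions are named by their deposited positions, genes are named only for a pair of windows, and the spleen label could not be checked against marker genes.

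The shared regions carried most of the spleen signal. They held 74.1% of the spleen counts, against 64.6% of the kidney counts and 62.7% of the male liver counts. A further 37523 regions had a peak in spleen alone and held 14.7% of the spleen counts, with a median width of 392 bp against 1174 bp for the shared regions. Spleen and male liver alone had 10674 regions in common, which held 9.01% of the spleen counts, and spleen and kidney alone 4657 regions with 2.13%. In the median spleen cell 74.1% of the counts lay in shared regions, and 90% of the spleen cells lay between 69.8% and 78.3%. The same share was 63.7% in the median kidney cell and 61.6% in the median male liver cell.

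Over the shared regions, levels were set on counts per 1000000 (CPM) of all peak counts of a library. The median log2 ratio was 0.04 for spleen over kidney and 0.19 for spleen over male liver. Scaled to the counts in shared regions alone, these medians became -0.16 and -0.06, so ratios near 1 have no firm direction here. Spleen was within 2-fold of both organs in 39.0% of the shared regions, above both in 42.9% and below both in 36.6%. It stood at least 4-fold above both organs in 1989 shared regions (5.65%) and at least 4-fold below both in 2179 (6.19%). In levels summed over a library, more cells with an open region and more fragments per open cell cannot be told apart.

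These folds went along with the width that each library's own peaks covered, and the deposited counts exist only inside the peaks of that library. A library's signal also sets the width of its peaks, so lower accessibility and narrower counting cannot be told apart, and both the division by covered bases and the choice of covered regions depend on that signal. In the median one of the 1989 higher regions, spleen peaks covered the whole merged region, kidney peaks 29.7% and male liver peaks 41.7%. In the median one of the 2179 lower regions, spleen peaks covered 16.2%, kidney peaks 86.0% and male liver peaks 99.9%. Divided by the bases each library covered, 607 shared regions stayed at least 4-fold higher in spleen, 572 of them among the 1989, and 171 at least 4-fold lower, 168 of them among the 2179. For this reason a second count was made, chosen after the data were seen, over the 21119 regions of which the peaks of each of the 3 libraries covered at least 50%, called covered regions below.

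In the covered regions the extremes were fewer, and their direction depended on the scaling. Spleen was at least 4-fold above both organs in 297 covered regions (1.41%) and at least 4-fold below both in 91 (0.431%), which became 197 and 213 when levels were scaled to the counts in shared regions alone. The median log2 ratios were 0.13 over kidney and 0.31 over male liver, 57.1% of the regions lay within 2-fold of both organs, 48.6% were above both and 31.8% below both, and the median over kidney turned to -0.073 under the other scaling. Per covered base, 107 of the 297 remained at least 4-fold higher, but only 2 of the 91 remained at least 4-fold lower. Counting error alone left 141 of the 297 and 16 of the 91 with intervals 4-fold apart. In the regions outside this set, 12.01% were called higher and 14.8% lower.

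**Figure D1:**
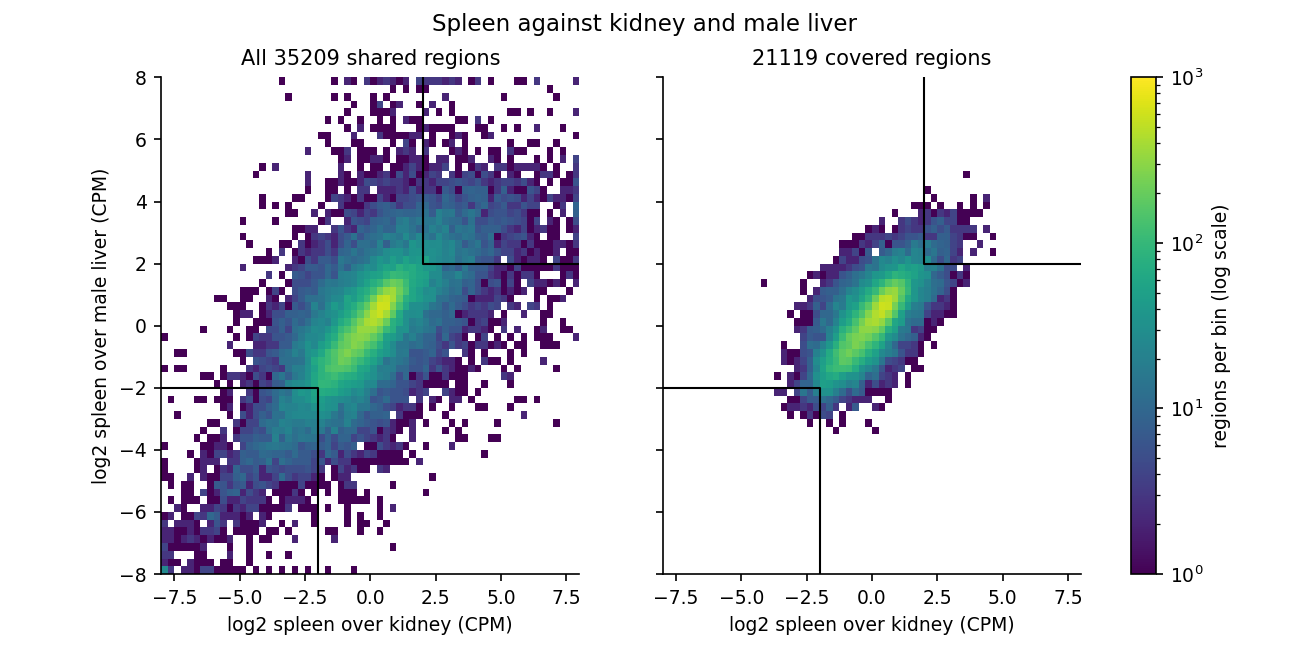
Number of regions by log2 ratio of spleen over kidney (x axis) and of spleen over male liver (y axis), on CPM, with values beyond 8 drawn at the edge. The left panel holds all 35209 shared regions and the right panel the 21119 covered ones. Black corners mark at least 4-fold above both organs (1989 and 297 regions) and at least 4-fold below both (2179 and 91), and the cloud is narrower in the covered regions.

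The regions with the largest folds over all shared regions were nearly private to spleen among the peak lists of the 3 organs, but some other libraries of the series had them too. They were the 12 with the largest smaller ratio among those with a count in at least 5% of the spleen cells. Spleen peaks covered the whole of each, kidney peaks between 0.0761% and 19.9%, and their spleen levels ran from 41.5 to 303 CPM. At chr7:168640475-168656000, which is 15526 bp wide, spleen had 303 CPM (exact Poisson interval 296 to 309), kidney 4.59 (3.71 to 5.61) and male liver 2.44 (2.01 to 2.94). These are ratios of 66.0 and 124, which became 6.23 and 5.96 per covered base. It was the most open of the 12 in spleen, with a count in 29.9% of the spleen cells. In colon, which had no part in the choice, peaks covered 50.5% to 100% of the 12 regions, and the colon level was close to that of spleen in several, such as chr3:72819032-72822981 (129 CPM in colon, 119 in spleen) and chr17:24935796-24943100 (113 and 108). Female liver had 4.04 to 95.5 CPM in the 12, where male liver had 0.217 to 2.44, with the highest female level at chr3:72819032-72822981. The male liver levels were low by the choice of regions, and its peaks covered 1.71% to 16.8% of each. Female liver peaks covered up to 100%, so this difference is a description only. Lung had 3.45 to 26.1 CPM, heart no peak in 9 of them and uterus none in 10.

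At chr19:16540998-16545765 spleen had 98.8 CPM, kidney 1.29 and male liver 1.10, ratios of 76.4 and 90.1 that became 6.19 and 5.52 per covered base. At chr12:83701305-83703768 spleen had 83.3 CPM, kidney 0.463 and male liver 1.61, and the ratios per covered base stayed large, at 20.5 and 8.69. At chr16:26617505-26622760 spleen had 80.1 CPM and male liver 1.18, while kidney had no count in the 0.0761% of the region its peaks covered. Per covered base the first 2 of these regions kept a spleen excess over both organs, whereas for the last the kidney value rests on the floor of 3 counts and says nothing of a direction.

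Among the covered regions, the 10 with the largest smaller ratio, by the same detection rule and named after their values were seen, stood between 9.05-fold and 17.1-fold above the nearer organ. They were 918 to 2472 bp wide, against a median of 904 bp over covered regions, and each was fully covered by spleen peaks. At chr6:122230580-122231497 spleen had 35.8 CPM (33.7 to 38.0), kidney 1.73 (1.21 to 2.40) and male liver 2.10 (1.70 to 2.56). That made spleen 20.7-fold higher than kidney (14.8 to 29.8) and 17.1-fold higher than male liver (13.9 to 21.3), or 10.5-fold and 8.64-fold per covered base. The kidney and liver intervals overlapped each other and neither came near the spleen interval. All these ratios are of summed counts. As a mean over cells, 20 of the 36 regions named for their fold left the counting interval of their ratio.

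At chr4:22584549-22586065 the levels were 57.0 CPM in spleen, 3.68 in kidney and 3.42 in male liver. Here kidney and male liver peaks covered 75.7% and 72.9% of the region, and the excess per covered base was 11.7-fold and 12.2-fold. Its covered shares in kidney and male liver were the highest of the 10. At chr19:10092223-10093381 the levels were 60.3 CPM in spleen, 3.02 in kidney and 4.04 in male liver, which is 19.9-fold and 14.9-fold. At chr1:221623743-221625008 they were 63.5 CPM in spleen, 5.22 in kidney and 2.11 in male liver, so that the ratio to male liver (30.1) was larger than that to kidney (12.2) and their intervals (24.6 to 37.4 and 10.01 to 14.9) did not overlap. Per covered base, the ratios of the 10 regions were smaller, from 4.71-fold to 11.7-fold over kidney and from 5.28-fold to 16.1-fold over male liver.

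The highest spleen level of the 10 was at chr9:62805614-62807224, with 128 CPM (124 to 133) in spleen, 13.6 (12.1 to 15.3) in kidney and 9.77 (8.89 to 10.7) in male liver. A count was found there in 16.3% of the spleen cells, 2.81% of the kidney cells and 3.46% of the male liver cells, although spleen cells were the shallowest of the 3. At chr12:88905573-88907493 the order of the other organs turned, with 92.0 CPM in spleen, 5.90 in kidney and 10.2 in male liver. The other 4 regions (chr7:84879878-84881962, chr7:35362694-35363723, chr1:64136177-64138648 and chr12:129807441-129809155) had 39.8 to 79.7 CPM in spleen and 3.37 to 7.73 CPM in the other organs.

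The 91 lower covered regions gave smaller and less secure contrasts. The first was chr12:77755671-77757295, with 5.03 CPM (4.26 to 5.90) in spleen, 48.1 (45.1 to 51.2) in kidney and 32.1 (30.5 to 33.8) in male liver. Kidney was thus 9.55-fold and male liver 6.38-fold higher, or 5.45-fold and 4.29-fold per covered base, since spleen peaks covered 56.7% of it. At chr6:10653222-10655176 spleen had 7.90 CPM, kidney 72.5 and male liver 49.7, and the deficit per covered base was 5.69-fold and 4.0004-fold. These were the 2 regions of the 91 that kept a 4-fold deficit per covered base, the latter only just. At chr13:38001827-38002573 spleen had 3.56 CPM, kidney 27.6 and male liver 20.7. In all 6 named lower regions kidney and male liver lay between 20.7 and 72.5 CPM, and spleen between 3.56 and 7.90 with a count in 0.510% to 1.15% of its cells.

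**Figure D2:**
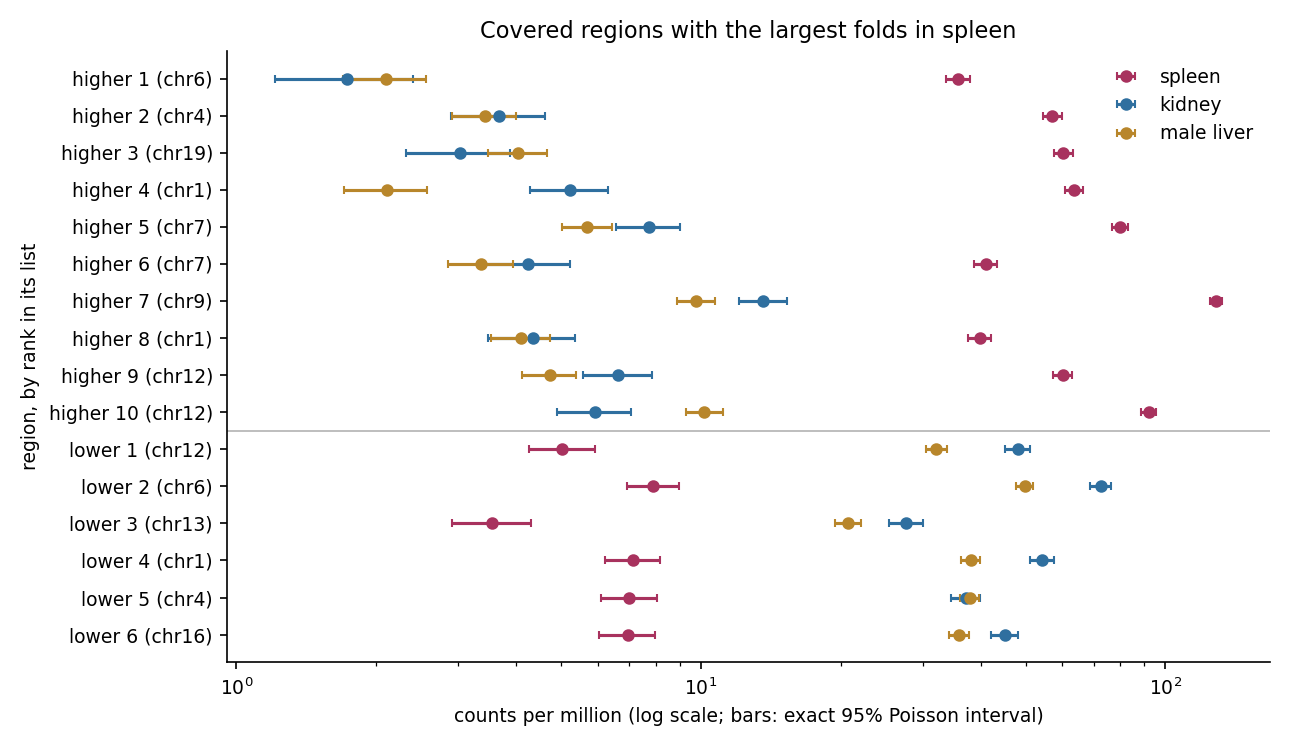
CPM (log axis) in spleen, kidney and male liver for the 10 higher and 6 lower covered regions, numbered in order of fold, with exact 95% Poisson intervals. Spleen stood at 35.8 to 128 CPM in the higher regions and at 3.56 to 7.90 in the lower ones, with no overlap with the intervals of the other organs.

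Over all shared regions, the 8 most extreme lower regions, among those with a count in at least 5% of the kidney cells and of the male liver cells, were positions where the spleen peaks only touched the merged region. Spleen peaks covered 0.0521% to 4.04% of them, and spleen counts there ranged from 0 to 8. At chr15:29055741-29058086 spleen had 7 counts (0.117 CPM) in the 3.88% it covered, against 29.3 CPM in kidney and 27.5 in male liver, and per covered base the deficit was 10.1-fold and 9.08-fold. These folds rest on 7 spleen counts, and the male liver one was the largest of the 8, whose median was 4.02-fold. At chr5:57359895-57361815 spleen had no count in the 0.0521% it covered. Such a region had passed as shared through a single base, and its values say nothing of a direction.

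The most widely open shared regions were open in all 3 organs. At chr13:70949185-70961516, the region with a count in the largest share of spleen cells (63.8%), spleen had 923 CPM, male liver 1800 and kidney 4291, so spleen was the lowest and kidney 4.65-fold above it at nearly full coverage in all 3. A count was found there in 90.0% of the male liver cells and 96.9% of the kidney cells. At chr19:1005075-1032139 spleen had 633 CPM, kidney 468 and male liver 355, and 53.8% of the spleen cells had a count. At chr14:8941359-8983848 the levels were 650 CPM in spleen, 750 in kidney and 776 in male liver. Spleen peaks covered 59.3% of it, kidney peaks 88.6% and male liver peaks 100%, and per covered base spleen was 1.30-fold and 1.41-fold higher. These 3 were the only shared regions with a count in at least 50% of the spleen cells.

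Among the 6 regions most often detected in spleen, chr16:37680152-37696967 stood apart from the others. It had 469 CPM in spleen with a count in 43.8% of the spleen cells, 14.7 CPM in kidney with 3.11% of the cells, and 27.9 CPM in male liver with 8.51%. Kidney peaks covered 15.6% of it and male liver peaks 34.6%, and the excess per covered base was 4.97-fold and 5.81-fold. At chr19:38837406-38853710 the contrast was about 2-fold, with 577 CPM in spleen, 268 in kidney and 286 in male liver. At chr19:49185632-49214748 the levels were nearly equal, at 530 CPM in spleen, 467 in kidney and 490 in male liver, although spleen peaks covered 52.2% of it and male liver peaks all of it, so that per covered base spleen was 1.39-fold and 2.07-fold higher.

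The windows that the study printed for EGFL7 and JCHAIN are the only ones named by a gene here. They rest on the assumption that the study's positions and those of the deposited peaks share a build. Without an annotation, no region in them could be assigned to that gene rather than to a neighbouring one. EGFL7 encodes a secreted protein made by endothelial cells, which line the vessels of all 3 organs. Summed over each library's peaks in its window, the level was 189 CPM (184 to 194) in spleen, 102 (98.1 to 107) in kidney and 254 (250 to 259) in male liver, whose peaks covered 35309 bp there against 19228 bp in spleen. Of its 8 shared regions, chr15:1809183-1810267 alone was at least 4-fold higher in spleen, at 19.04 CPM against 1.66 in kidney and 3.39 in male liver, but kidney peaks covered 40.1% of it. The covered region chr15:1802235-1803405 had 13.2 CPM in spleen, 2.12 in kidney and 5.14 in male liver.

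JCHAIN encodes the joining chain of dimeric IgA and pentameric IgM and marks antibody-secreting cells. Its window had 188 CPM (183 to 193) in spleen, 194 (188 to 200) in kidney and 109 (106 to 112) in male liver. The spleen and kidney intervals overlapped, and male liver was lower, with peaks over 7424 bp against 10449 bp in spleen. None of its 5 shared regions stood at least 4-fold above or below both organs. The largest spleen excess was at chr5:63545437-63546841, with 34.7 CPM in spleen, 10.4 in kidney and 6.06 in male liver. In the widest region, chr5:63574413-63577595, spleen had 53.9 CPM, kidney 68.7 and male liver 51.6.

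The 297 higher covered regions were next looked at in the 5 libraries that had no part in choosing them. Their summed level there lay between that of spleen and those of kidney and male liver. As fragments in peaks that overlap these regions, per 1000000 fragments of the library, spleen had 8615 (8582 to 8648), kidney 1405 and male liver 1281, which the choice of regions fixed. Colon had 6995, female liver 5921, lung 5847, uterus 5577 and heart 4811. In these sums the other libraries lay below spleen and above kidney and male liver, by margins beyond counting error. Regions chosen as extremes of 3 libraries favour such a middle place for any other library, so this order is a description only. The order depended on the measure, since each library was summed over its own peaks: in the 146 regions that uterus covered, its median was 23.1 CPM, against 21.3 CPM in spleen over the 297. All 5 came from the other animal. Their own peaks covered at least 50% of the merged region in 67.3% (heart) to 96.0% (female liver) of the 297 regions, and in 49.2% in uterus.

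Single regions were less even across these libraries, as 3 named regions show that were picked after their values were seen. At chr6:122230580-122231497, where spleen had 35.8 CPM, colon had 49.4 and female liver 29.8, while lung had 11.5, heart 9.98 and uterus no peak. At chr9:62805614-62807224 all 5 libraries had between 37.4 and 75.5 CPM, with colon and female liver highest. At chr7:168640475-168656000 colon had 164 CPM and female liver 68.7, lung had 5.17 in the 4.92% it covered, and heart and uterus had no peak. Colon and female liver therefore had a peak and at least 29.8 CPM in each of these regions, whereas uterus had a peak in 1 of them. Over those of the 297 regions that a library covered (275 in colon, 285 in female liver, 284 in lung, 200 in heart and 146 in uterus), the median level, set against the median of all covered regions of the same library, was 1.45 times in colon, 1.23 in female liver, 0.855 in lung, 0.815 in heart and 0.591 in uterus.

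The 91 lower regions were summed in the same way. Their summed share was 313 fragments per 1000000 (307 to 320) in spleen, 1810 in kidney and 1487 in male liver. Colon had 611, female liver 617, uterus 890, lung 921 and heart 1003. In these sums every library that had no part in the choice was above spleen and below kidney and male liver. The choice of extremes favours such a middle place here too, so it says nothing particular of these organs. Uterus had a peak in 45 of the 91 regions only. Its median where it covered them was 25.1 CPM, against 11.8 in kidney and 11.1 in male liver over the 91. The median level of these regions was between 0.320 times (lung) and 0.642 times (uterus) that of all covered regions in the same library, measured where that library covered at least 50% of the region, which was 26.4% of the 91 in uterus and 64.8% to 93.4% in the other libraries.

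Both sets were chosen by the level of male liver, so its difference from female liver in them is a description only. The higher regions held 1281 fragments per 1000000 in male liver and 5921 (5775 to 6070) in female liver, and the lower regions 1487 and 617 (571 to 667). Female liver was also the shallowest library, with 728 of 2110 barcodes at 1000 counts or more and 1978404 counts in them. The choice of regions, animal, library and depth cannot be told apart for this pair.

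**Figure D3:**
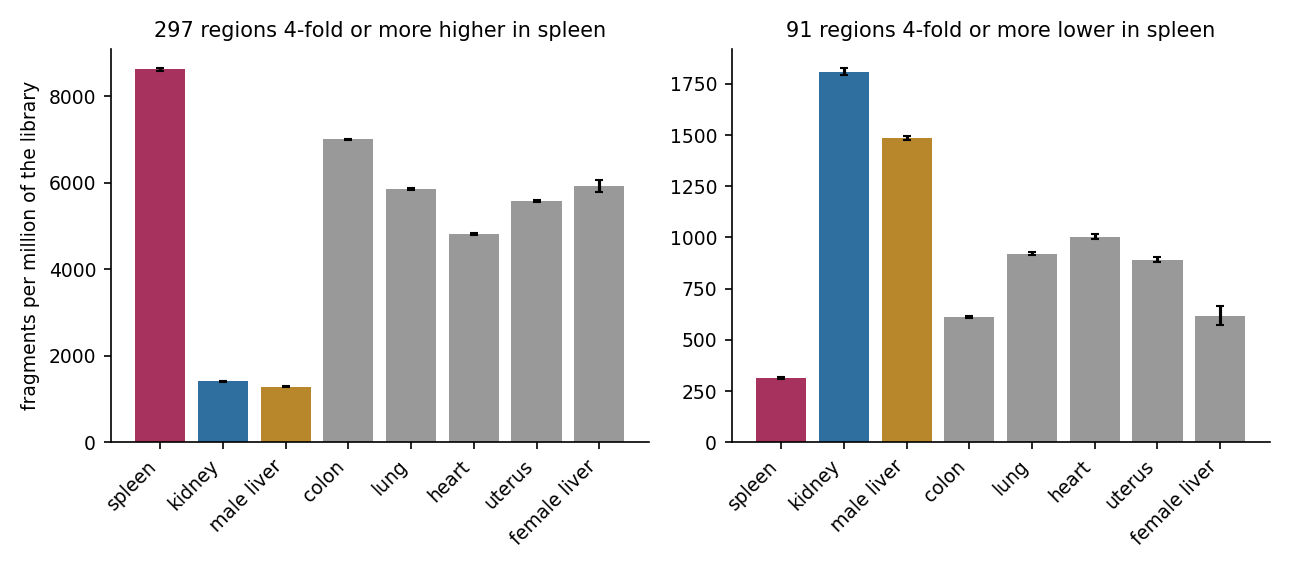
Fragments in the 297 higher (left) and 91 lower (right) covered regions per 1000000 fragments of each library, with exact 95% Poisson intervals. Spleen, kidney and male liver, in colour, were used to choose the regions; the 5 grey libraries were not, and hold 4811 to 6995 on the left and 611 to 1003 on the right.

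Detection per spleen cell was sparse. The median spleen cell had a count in 806 shared regions, against 1129 in kidney and 1900 in male liver. Thinned to 500 fragments per cell, the order turned, and the medians were 358 in spleen, 310 in kidney and 298 in male liver. Thinning was to fragments in all peaks, of which spleen cells had the largest share in shared regions, so this order depends on that scaling. The median shared region had a count in 1.11% of the spleen cells, 1.70% of the kidney cells and 2.80% of the male liver cells, and in 0.375%, 0.411% and 0.402% after thinning. In spleen, 52.3% of the shared regions were detected in at least 1% of the cells, 19.9% in at least 5% and 6.45% in at least 10%. After thinning, spleen had the highest detection of the 3 in 48.0% of the covered regions and the lowest in 29.8%.

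The 297 higher regions were chosen for their summed level in spleen, so their detection is given as a description. Their median detection was 3.10% of the spleen cells, against 1.41% for all covered regions, and 285 of them (96.0%) were detected in at least 1% of the spleen cells. In kidney the median was 0.658% and in male liver 1.14%. Thinned to 500 fragments these medians were 1.01%, 0.175% and 0.251%. The 91 lower regions had a count in a median of 0.335% of the spleen cells, and none of them reached 5%.

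The spread of fragments among spleen cells was measured in a pair of ways. For each region, the share of cells with a fragment was divided by the share expected if every cell held the region in proportion to its own total, and the median of this ratio was 0.988. For a region seen in few cells this ratio lies near 1 whatever its spread, so it says little of the median region. The variation beyond counting noise was also given as a squared coefficient of variation, which is 0 for a perfectly even spread. Over the 4555 covered regions detected in at least 5% of the cells of every library, its median was 0.219 in spleen, 0.463 in kidney and 0.340 in male liver. Spleen was the most even of the 3 in 70.0% of these regions and the most uneven in 6.43%. The detection limit was applied at unlike depths and was strictest for spleen. It was met by 5249 covered regions in spleen, 5934 in kidney and 8231 in male liver, so this order holds for the regions so chosen. Among the 72 higher covered regions detected in at least 5% of spleen cells the median was 0.341 (quartiles 0.243 and 0.545), against 0.233 (0.152 and 0.336) in regions within 2-fold of both organs.

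Summed over all 297 higher regions, the share per spleen cell varied little beyond counting noise relative to its mean. The median spleen cell had 8392 fragments per 1000000 in them, 90% of the cells lay between 4062 and 13310, and the squared coefficient of variation beyond counting noise was 0.00707. In kidney it was 0.228 around a median of 1206. In male liver it was 1.09 around a median of 739, with the 95th percentile at 8824 and the 99th at 12960. The low level of male liver, fixed by the choice of regions, therefore held for most of its cells and not for all of them. In colon the value was 0.0611, in uterus 0.0445, in lung 0.137, in female liver 0.156 and in heart 0.189. A sum over many regions varies less than its parts, and each of these values is relative to its library's own level. Libraries of unlike level are not ranked by them.

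A minority of male liver cells had as large a share in these regions as the median spleen cell. They were 719 of 11935 cells (6.02%, exact binomial interval 5.60 to 6.47), where an even spread would give 0.220 cells. In kidney they were 58 of 9724 cells (0.596%, 0.453 to 0.770), where an even spread would give 0.0892. These cells were shallow, with a median of 2546 counts in male liver against 7236 in the other cells, and 2074.5 against 3706.5 in kidney. Among cells with at least 2500 fragments, 103 of 7589 male liver cells (1.36%) and 1 of 2950 kidney cells (0.0339%) reached the spleen median, against 1365 of 2339 spleen cells (58.4%). Of the 719 male liver cells, 17 (2.36%) carried a barcode that was also in the spleen list, against 2.96% of all male liver cells. The part of depth in the pattern was not tested further.

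**Figure D4:**
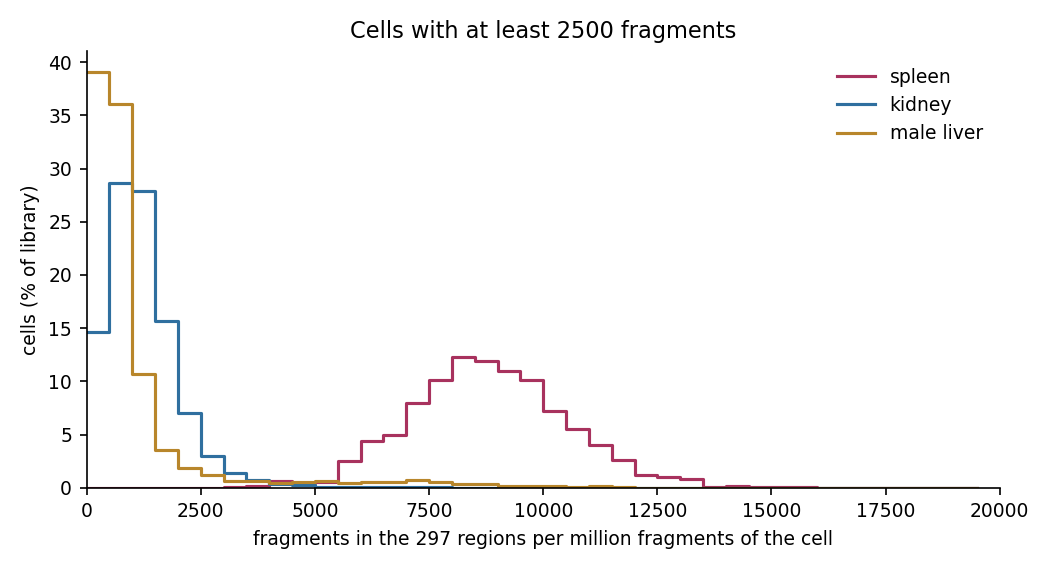
Share of cells (y axis, percent of the library's cells with at least 2500 fragments) by their number of fragments in the 297 higher covered regions per 1000000 fragments (x axis, bins of 500). The median is 8752 for spleen cells, 1095 for kidney cells and 617 for male liver cells, the last with a thin tail that reaches the spleen cells.

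Some shared regions were concentrated in fewer spleen cells than their level allowed. Among regions detected in at least 10% of the spleen cells, the lowest ratio of detected to expected cells was 0.849, at chr11:51192789-51208294, which had 177 CPM in spleen, 167 in kidney and 61.6 in male liver. Its squared coefficient of variation was 1.12 in spleen, 2.79 in kidney and 3.27 in male liver, so it was more uneven in the other organs. At chr16:36169954-36183600 the ratio was 0.864, with 177 CPM in spleen, 89.5 in kidney and 170 in male liver. The third was chr7:168640475-168656000 (0.885), the region with 303 CPM in spleen described above. The first of these was close to kidney in level and the second close to male liver, whereas the third was far above both. At the other end, chr18:83786-98525 (1.03), chr4:146933-157888 (1.02) and chr18:68458-83276 (1.02) were spread over slightly more cells than expected. Their squared coefficients of variation were 0.239 to 0.280, near the median of 0.241 over shared regions detected in at least 5% of spleen cells. By that measure they were not unusually even.

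By a second measure, chosen after the data were seen, the order differed. Among covered regions detected in at least 5% of the spleen cells, chr1:39773124-39781078 had the largest squared coefficient of variation, 1.59 in spleen against 0.360 in kidney and 0.621 in male liver. Its level was 35.8 CPM in spleen, 121 in kidney and 76.4 in male liver. Next came chr7:75424949-75431316, with 1.34 in spleen, 0.178 in kidney and 0.272 in male liver. Its level was 49.3 CPM in spleen, 117 in kidney and 73.3 in male liver. Both regions had a lower level and a more uneven spread in spleen than in the other organs, the second by less than 2-fold against male liver. By contrast, chr15:1786167-1801690 in the EGFL7 window was uneven everywhere, with 1.22 in spleen, 1.67 in kidney and 1.62 in male liver.

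To see where these regions were open, spleen cells were clustered on 10326 spleen peaks outside the shared regions, so that the levels of the shared regions had no part in forming the clusters. The cells formed 18 clusters of at least 1% of the cells, from 4987 cells (24.9%) in cluster 1 to 209 (1.04%) in cluster 18. The clusters carry no cell type name, because no annotation was used to place marker genes. The EGFL7 and JCHAIN windows alone were not taken to name a cluster. Cluster 10 stood apart in depth, with a median of 4974.5 counts against 1670.0 to 3098.0 in the others. Of its 660 cells, 51.2% had a high simulated-doublet score, against 20.02% of all spleen cells. In the other clusters this share was 11.96% to 27.24%. These shares depend on where the score was cut and are not rates of doublets. The borders of the clusters were not firm, since another random seed gave 19 clusters with an adjusted Rand index of 0.611 to these and removal of cells with high doublet scores 19 with 0.430, where 1 is full agreement, so values of single clusters hold for this clustering.

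Summed, the higher regions had a like level in every cluster. Their summed level ran from 7891 CPM (7789 to 7994) in cluster 4 to 9091 (9020 to 9162) in cluster 1, with kidney at 1378 and male liver at 1254. The lower regions summed to 244 CPM (232 to 256) in cluster 1 and to 462 (438 to 488) in cluster 4, with kidney at 1830 and male liver at 1503. Cluster 4 was thus at the other organs' side in both sets, by a margin beyond counting error but small against the distance to kidney and male liver. The next highest in the lower set were cluster 10, at 379, and cluster 3, at 341.

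**Figure D5:**
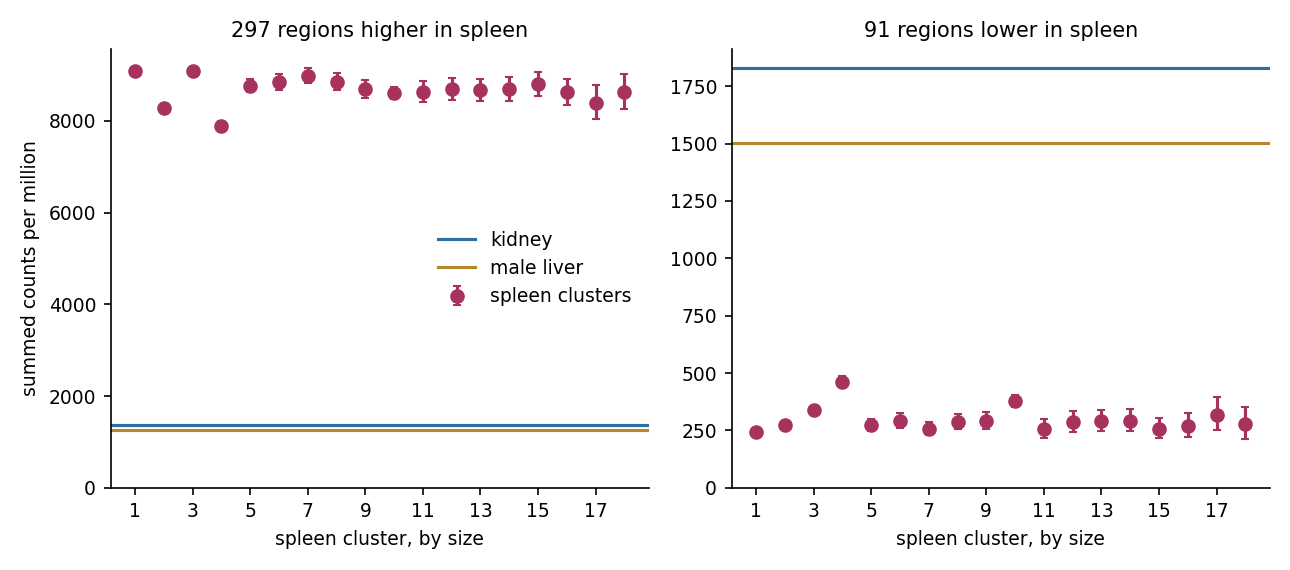
Summed CPM of the 297 higher (left) and 91 lower (right) covered regions in each of the 18 spleen clusters, with exact 95% Poisson intervals. Lines give kidney and male liver. Clusters range from 7891 to 9091 on the left and from 244 to 462 on the right, and all lie on the same side of the lines.

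Single higher regions are given by cluster as a description, since a sum over many regions must vary less than its parts. In the 72 higher covered regions detected in at least 5% of spleen cells, the top cluster reached a median 1.52 times the all-cell level. The same median was 1.35 in regions within 2-fold of both organs. The largest of 18 cluster values lies above 1 through counting noise alone, most of all in small clusters. In the 3508 regions within 2-fold that were detected as often, the top was cluster 18 in 563 and cluster 17 in 482. Neither median is therefore a measure of true differences between clusters alone. At chr19:10092223-10093381 cluster 1 had 101 CPM (94.0 to 109) and cluster 10 had 31.6, against 60.3 over all spleen cells. At chr7:84879878-84881962 clusters 7 and 15 had 145 CPM each, within counting error of clusters 14 and 6, and cluster 2 had 45.9. At chr16:30865783-30866972, which is not a covered region and so not among the 297, cluster 7 had 92.9 CPM (76.8 to 111), an interval that held clusters 9, 12 and 15, and cluster 1 had 21.9. Cluster 1, the largest, was thus highest in the first region and lowest in the last. At chr9:62805614-62807224 the range was narrower, from 89.4 CPM in cluster 2 to 165 in cluster 15. Even the lowest of these cluster levels was above the kidney and male liver level of the same region.

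Several of the concentrated and uneven regions had a leading cluster. At chr11:51192789-51208294 cluster 4 had 439 CPM (415 to 464) against 177 over all spleen cells, and at chr16:36169954-36183600 it had 473 (449 to 499) against 177. At chr7:168640475-168656000 cluster 1 was highest, with 447 CPM (431 to 463), and cluster 4 lowest, with 206. At chr1:39773124-39781078 cluster 4 had 86.9 CPM (76.5 to 98.4), cluster 10 had 69.2, cluster 3 had 48.4, and the lowest cluster 17.0. At chr7:75424949-75431316 cluster 4 had 110 CPM, cluster 10 had 102 and cluster 3 had 92.7, with the lowest cluster at 18.1. Clusters 4, 10 and 3 had the highest levels in the last pair, and in the latter region the interval of cluster 4 (98.5 to 123) held the level of cluster 10. Other regions of these lists had a smaller lead: the top cluster of chr6:139180776-139188549 stood at 1.37 times the level over all spleen cells, that of chr14:8895377-8908448 at 1.39 times and that of chr6:169854963-169868984 at 1.40 times, near the median of 1.35 over covered regions detected in at least 5% of the spleen cells. At chr10:66262493-66264075 and chr4:29181200-29183214, too, the interval of the top cluster held the level of the next. In the EGFL7 window cluster 3 had 452 CPM (433 to 472) and cluster 10 had 327, and cluster 1 had 115. In the JCHAIN window cluster 1 was highest with 249 CPM (238 to 262), with intervals that overlapped those of cluster 13 (207, 172 to 247), cluster 18 (206, 151 to 273) and cluster 17 (179, 129 to 241).

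The 10 named higher covered regions occurred together in spleen cells about as often as depth predicts, and the 12 shared regions with the largest folds somewhat more often. Over the 45 pairs of the 10 higher covered regions, the number of cells with both, divided by the number expected at each cell's depth, had a median of 1.03 and ran from 0.885 to 1.17. The exact Poisson interval lay above 1 for 3 pairs and below 1 for none. Over the 66 pairs of the 12 regions with the largest folds the median was 1.07, with 22 pairs above 1 and 3 below. These 12 were wider than the 10 (median 4259.5 against 1564 bp) and detected in more spleen cells (median 11.1% against 8.22%). Pairs of other shared regions were not measured, so these counts of pairs have no base to be set against. The extreme pair was chr17:24935796-24943100 with chr15:46290938-46296028, found together in 482 cells where 384 were expected (ratio 1.26, 1.15 to 1.37). Both of these were highest in cluster 1, at 194 and 143 CPM.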

How the data were processed

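The authors processed each library with Cell Ranger ATAC 1.2.0 and deposited, per library, a peak list, a barcode list and a matrix of raw counts, each 1 cut end of a fragment in that library's own peaks. For these peaks, the sources used here name no genome build. The deposited counts were summed over merged regions and expressed as CPM of all peak counts of the library. Barcodes with at least 1000 counts were kept, without doublet removal. Fragments were taken as counts divided by 2, rounded up. Intervals at 95% were exact Poisson intervals on counts divided by 2, or exact binomial ones, and a count of 0 was set to 3. Cut ends are not independent molecules, so all intervals cover counting error only. For clusters, spleen peaks outside the shared regions with a count in at least 1% of cells were binarized, weighted by inverse document frequency, reduced to 30 components (29 used) and clustered with leidenalg 0.10.2 on 20 neighbours at resolution 0.8. Regions were named by rank of fold, detection or spread as given with each list, the lists over covered regions and of uneven regions being set after the data were seen, and the scripts were tested on simulated counts. The members and lists were chosen with earlier results of these data known. Python 3.11.15 with numpy 2.4.6 and scipy 1.17.1 was used.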

Additional observations from a re-analysis of the deposited data

How the results depend on the processing

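Counts of regions at least 4-fold higher in spleen (1989) or lower (2179) over all shared regions stayed within 1.5 times under scaling to shared counts, centring, a mean over cells, 2000 counts per barcode, doublet removal, a 50% overlap, widths up to 3000 bp and at least 200 counts. Per covered base they were 607 and 171, with the female liver 419 and 1158, at 2-fold 4963 and 5505, at 8-fold 774 and 1048, and 1360 lower ones beyond counting error. The covered sets (297 and 91) became 197 and 213 scaled to shared counts, 110 and 2 per covered base, 61 and 15 with the female liver, 1894 and 1584 at 2-fold, 35 and 0 at 8-fold, 141 and 16 beyond counting error, 804 and 403 with 30% covered, and 16 and 1 with 80% covered. A mean over cells gave 153 higher ones, centring 140 lower ones and 2000 counts 146 lower ones. The covered regions themselves numbered 8158 at 80%. Of the 36 regions named for their fold, the ratio to the nearer organ left its counting interval in 20 as a mean over cells. Scaled to shared counts it did so in 6, and without doublets in 0. Per covered base it did so in 35 and turned in 1. The covered-width, shared-barcode and per-cell alternatives were chosen after seeing the data.

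The median log2 ratio to kidney (0.04) turned to -0.16 scaled to shared counts and was 0 centred, 0.13 per covered base, 0.014 with 2000 counts, 0.063 without doublets, 0.020 up to 3000 bp and 0.10 with the female liver. That to liver (0.19) turned to -0.056 scaled to shared counts and to -0.0024 with the female liver, and was 0 centred, 0.41 per covered base, 0.13 as a mean over cells, 0.16 with 2000 counts and 0.21 without doublets. In covered regions the ratio to kidney (0.13) turned to -0.073 scaled to shared counts and was 0.089 centred, 0.16 per covered base, 0.10 with 2000 counts, 0.15 without doublets, 0.097 up to 3000 bp, 0.16 with the female liver, 0.094 at 30% covered and 0.24 at 80%. That to liver (0.31) was 0.064 scaled to shared counts, 0.12 centred, 0.42 per covered base, 0.24 as a mean over cells, 0.28 with 2000 counts, 0.27 up to 3000 bp, 0.081 with the female liver, 0.27 at 30% covered and 0.42 at 80%.

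Peaks kept only with a count in at least 1% of barcodes left 14310.0 shared regions, and the share of spleen counts in shared regions was 74.11% with 2000 counts and 73.87% with a 50% overlap. Median detection in spleen was 0.375% thinned, 1.42% with 2000 counts and 0.918% without doublets. Detected over expected was 1.0 thinned, 0.987 with 2000 counts, 0.988 without doublets and 0.989 up to 3000 bp. Spleen clusters numbered 6 at resolution 0.4 and 11 on all spleen peaks. At regions of at most 3000 bp the log2 level of the higher regions was 0.79 in colon, -0.079 in lung, -0.18 in heart and 0.61 in female liver, and that of the lower regions -0.98 in colon, -1.41 in lung, -1.12 in heart, -0.48 in uterus and -1.07 in female liver. The spleen squared coefficient of variation over the 297 regions was 0.00361 with at least 5000 counts. Male liver cells at or above the spleen median made up 7.002% without doublets, 4.29% with 2000 counts and 0.926% with 5000, and kidney cells 0.379% and 0.0354% at those depths. At chr5:57359895-57361815 the log2 ratio of 0.88 per covered base comes from the floor of 3 counts over 1 covered base and says nothing of a direction. The cause of these shifts was not tested. No paired analysis was possible because each organ of the male animal was 1 library.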

Other observations

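Regions chosen against 1 organ alone stood below the median of covered regions in the organ left out, whichever direction they were chosen in. Of the 21119 covered regions, 593 (2.81%) were at least 4-fold higher in spleen than in kidney, whatever their level in male liver. Their median level, taken over those that the library covered (from 263 in uterus to 593 in male liver) and set against the median of all covered regions of the same library, was 0.493 times in male liver, 1.12 in female liver, 1.198 in colon, 0.826 in lung, 0.778 in heart and 0.521 in uterus. The 786 regions (3.72%) at least 4-fold higher in spleen than in male liver, taken likewise (425 of them in uterus), stood at 0.551 times in kidney, 0.672 in uterus, 0.906 in lung and 1.30 in colon. The 300 regions at least 4-fold lower in spleen than in male liver stood at 0.688 times in kidney. The 421 regions at least 4-fold lower in spleen than in kidney stood at 0.828 times in male liver, 0.346 in female liver (349 covered) and 0.324 in colon (348 covered). These values share the spleen library and are a description.

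The share of higher covered regions ranged between 2 extremes over the chromosomes. Chromosome 19 held 41 of them among 1289 covered regions (3.18%), while the X chromosome held 3 among 552 (0.543%). The median log2 ratio on chromosome 19 was 0.40 over kidney and 0.79 over male liver, the largest pair of any chromosome, and on chromosome 12 it was -0.10 and 0.11. Of the nearest covered neighbours of a higher region, 3.37% were higher themselves, against 1.41% of all covered regions. No chance value was computed for either.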
